A study of Drosophila melanogaster with 5 samples.

Results

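The 8 genes described here encode potassium channels that stay open near the resting potential of a cell: the two-pore channel genes Ork1, sand, Task6, Task7 and galene, and the inward rectifier genes Irk1, Irk2 and Irk3. They were chosen by gene symbol out of 16510 genes in the deposited FPKM table. The files list 6 of them under these symbols, and sand and galene under their older locus tags, CG8713 and CG9194. RNA-seq was performed on the CNS of Drosophila larvae at 84 h after egg laying, in 3 control and 2 IP3R knockdown libraries, each from a pool of about 15 CNS. The labels give the control genotype as UAS-dsitpr/+; UAS-dicer/+ and the knockdown genotype as ElavC155GAL4/+; UAS-dsitpr/+; UAS-dicer/+. Both groups thus carry the RNAi transgene against the IP3 receptor gene itpr and a dicer transgene, and the controls lack a GAL4 driver. ElavC155GAL4 drives transgenes in neurons in general, whereas the study's methods name VGN6341GAL4, which marks a subset of glutamatergic neurons, for the same experiment. A figure legend of the study names the elavC155 driver for these libraries, as the labels do.

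A two-pore channel subunit carries a pair of pore loops, and a pair of subunits forms a potassium leak that holds the resting potential negative. Inward rectifier subunits have a single pore loop, assemble as tetramers and pass potassium into the cell more readily than out of it. Both families set how far a neuron at rest is from firing threshold, and both are also used by glia and epithelia that move potassium. Voltage-gated potassium channels, by contrast, open on depolarization and repolarize the membrane after a spike.

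The deposited tables hold 1 value per gene and group. There is no value per library, so no spread between libraries and no test could be computed, and each difference below is a description of group means without a replicate check. FPKM (fragments scaled by transcript length and by the number of mapped fragments) is a level per length and can be compared between genes. The mean normalized count is a mean over the libraries of a group after scaling for depth and is not divided by length. A gene was counted as lower or higher when its knockdown mean lay at least 25% below or above its control mean, the minimum change used by the study. The mean normalized counts summed over all genes came to 12.7 M for the controls and 11.9 M for the knockdown. Itp-r83A, the gene targeted by the RNAi, stood at 24.7 FPKM in controls and 15.0 on knockdown, a log2 ratio of -0.72. Dcr-2, carried by a transgene under GAL4 control, was 31.3 and 96.7 FPKM, and w, the usual eye color marker of transgenes, was 13.4 and 116 FPKM. Because the libraries are bulk tissue, fewer cells that express a gene and less RNA per cell cannot be told apart.

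The most abundant transcript of the 8 genes in the larval CNS was that of the inward rectifier Irk3, at 78.1 FPKM in controls and 88.1 on knockdown. Irk2 followed at 60.5 and 58.3 FPKM, then Task6 at 52.2 and 47.0, Task7 at 37.8 and 34.3, and Irk1 at 31.6 and 27.7. The last places were held by sand at 13.6 and 13.5 FPKM, Ork1 at 12.5 and 9.62, and galene at 5.15 and 2.20. The order was thus the same in both groups, with inward rectifiers in the leading 2 places and a control level of Irk3 that was 15.2-fold that of galene. Against the 11236 genes with a mean FPKM of at least 1, the control level of Irk3 lay at percentile 76.3 and that of galene at percentile 14.5. No error belongs to these levels, so neighbours such as sand and Ork1 cannot be said to differ. The normalized count per kilobase of annotated exon gave another order in controls, led by Task6 at 509, Irk2 at 483 and Irk3 at 467, while Ork1 at 129 and galene at 101 again came last. All 8 were among the 9346 genes of the deposited edgeR table, with an average log2 CPM (read counts scaled to library size, over both groups) from 4.45 for galene to 7.60 for Task6.

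**Figure D1:**
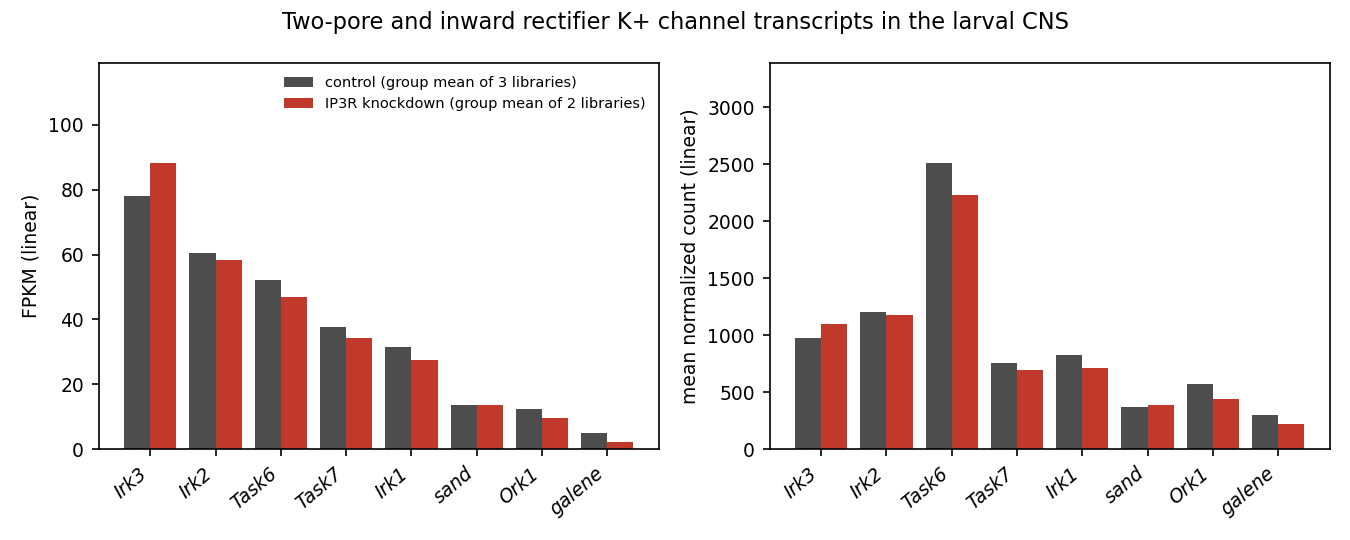
FPKM (left) and mean normalized count (right) of the 8 potassium channel genes on linear axes from 0, with a grey bar for the mean of 3 control libraries and a red bar for the mean of 2 IP3R knockdown libraries as deposited, without error bars because no value per library was used. The genes stand in the order of their control FPKM, from Irk3 at 78.1 to galene at 5.15, and by mean normalized count Task6 stands highest at 2509 and 2234.

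Of the 8 genes, 1 was at least 25% lower on knockdown and 0 were at least 25% higher, both by FPKM and by mean normalized counts. Over the 13790 genes compared, 19.3% were lower and 20.2% higher by FPKM, and 19.0% were lower and 18.4% higher by mean normalized counts. Among the 11236 genes with a mean FPKM of at least 1, 14.5% were lower and 12.2% higher in both tables. A count of 1 in 8 is therefore near the share of all genes, and the channel genes did not stand out from it by their number of differences. The gene that was lower is galene. Of the 8 genes, 6 lay below control in both tables, Irk3 lay above it in both, and sand lay below it by FPKM and above it by mean normalized counts. The difference was within 15% of control in both tables for 6 genes. The median log2 ratio of the 8 genes was -0.15 by either measure, beside 0.03 for FPKM and 0.04 for mean normalized counts over all genes with a mean FPKM of at least 1.

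The gene galene encodes a two-pore channel and lies at 3L:1235726-1242025 on the plus strand (dm6), with 1 annotated transcript and 2974 bases of exon. Its FPKM was 5.15 in controls and 2.20 on knockdown, a log2 ratio of -1.22 that leaves 42.8% of the control level. Its mean normalized count was 301 and 223, a log2 ratio of -0.44 that leaves 73.9%. Both values are past the 25% limit, but the latter only just. The tables differ here by 0.79 on the log2 scale, whereas the largest such difference among the other 7 channel genes was 0.10 and the median over genes with a mean FPKM of at least 1 was 0.018. A difference between the tables as large as that of galene occurred in 2.04% of those genes, and in 3.41% of the genes in its own decile of expression. In that decile 32.7% of genes were at least 25% lower by FPKM, and the FPKM log2 ratios ran from -1.99 at the 5th percentile to 1.00 at the 95th. The low level of galene thus comes with a wide range of ratios among genes of like level.

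The exons of galene overlap those of Klp61F, a kinesin motor gene on the opposite strand, by 424 bases or 14.3% of the exon length of galene. Klp61F was at 71.5 FPKM in controls and 70.7 on knockdown. A further gene on the opposite strand, CG9192, lies within galene without exon overlap and was at 4.60 and 6.27 FPKM. The stretch of chromosome that CuffDiff lists as the locus of galene reaches 3885 bases beyond the annotated gene. No source used here says that reads were counted by strand, so reads of galene and of Klp61F in the shared bases cannot be told apart, and the part of this overlap in the values of galene was not tested.

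Ork1 encodes a leak channel that is open at all voltages and is known in the fly heart, where it slows the beat. It lies at X:10878054-10891250 on the minus strand, with 4 transcripts, 4482 bases of exon and no exon overlap with another gene. Its FPKM was 12.5 in controls and 9.62 on knockdown, a log2 ratio of -0.37, and its mean normalized count was 577 and 443, a log2 ratio of -0.38. With 77.2% of the control FPKM remaining, Ork1 was just short of the 25% limit, and the tables gave almost the same value. Ork1 was in the same decile of expression as galene, in which 32.7% of genes were at least 25% lower by FPKM. Genes in its decile of exon length had a median log2 ratio of -0.14, and Ork1 lay 0.23 below it.

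The gene sand (sandman) encodes a two-pore channel known for its place in adult neurons that control sleep, where it silences the cell. It lies at 2R:8091696-8096948 on the plus strand with 1978 bases of exon. Its FPKM was 13.6 in controls and 13.5 on knockdown, a log2 ratio of -0.01, and its mean normalized count was 368 and 393, a log2 ratio of 0.09. The direction thus depended on the table, and both differences were small. Its exons share 157 bases, 7.94% of their length, with the opposite-strand gene uno, which was at 42.1 and 48.6 FPKM.

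Task6 and Task7 are related in sequence to the mammalian acid-sensitive TASK channels. They were the most abundant of the two-pore genes and differed from control by similar amounts. Task6 lies at 3R:13667046-13674542 on the minus strand with 4 transcripts, and its mean normalized count was 2509 in controls and 2234 on knockdown, a log2 ratio of -0.17 beside -0.15 by FPKM. Task7 lies at 3R:9410329-9412293 on the minus strand with 1 transcript, and its mean normalized count was 760 and 692, a log2 ratio of -0.13 beside -0.14 by FPKM. The pair differ in exon length, 4932 bases for Task6 and 1727 for Task7. Against genes of like exon length, whose median log2 ratio was -0.14 for the decile of Task6 and 0.11 for that of Task7, Task6 lay 0.01 below the median and Task7 0.25 below it.

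**Figure D2:**
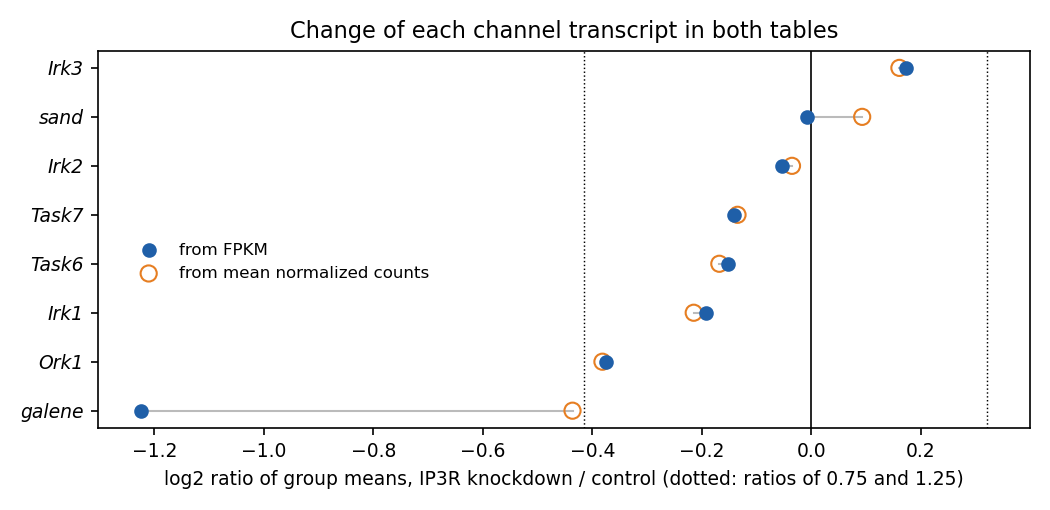
Log2 ratio of knockdown to control for the 8 channel genes by FPKM and by mean normalized counts, 1 point per gene and table, with dotted lines at a 25% decrease and a 25% increase. The points of galene lie at -1.22 and -0.44 and those of sand at -0.01 and 0.09, while those of the other 6 genes nearly coincide.

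The inward rectifiers Irk1 and Irk2 are known from the Malpighian tubule, the renal epithelium of the fly, where they carry potassium into the cell, and Irk2 is also known from wing development. Irk2, at 3R:23513617-23519445 on the minus strand, had a mean normalized count of 1207 in controls and 1178 on knockdown, a log2 ratio of -0.04 beside -0.05 by FPKM. Irk1, at 3R:23168317-23185642 on the plus strand, had a mean normalized count of 828 and 713, a log2 ratio of -0.21 beside -0.19 by FPKM. Irk1 is the longest of the 8 genes, with 7 transcripts and 5246 bases of exon, and genes in its decile of exon length had a median log2 ratio of -0.39, which places Irk1 0.20 above genes of like length. Irk1 thus lay below control in both tables but above the median of genes of like length. On the same strand the annotated gene CG46310, which is not used here, shares 3202 bases or 61.0% of the exon length of Irk1. The locus that CuffDiff lists for Irk1 reaches 41069 bases beyond the gene. How reads in these bases were assigned is not given in the sources used here, so the values of Irk1 are uncertain. On the opposite strand cnc shares 63 bases of exon with Irk1 and was at 39.8 FPKM in controls and 32.5 on knockdown.

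Irk3 was the channel gene with the highest level and the only one of the 8 above control in both tables. It lies at 2L:18711071-18713748 on the minus strand with 3 transcripts and 2096 bases of exon. Its FPKM was 78.1 in controls and 88.1 on knockdown, a log2 ratio of 0.17, and its mean normalized count was 979 and 1095, a log2 ratio of 0.16. That is 113% of the control FPKM, short of the 25% limit, and 0.11 above the median of genes of like exon length. Its exons share 227 bases, 10.8% of their length, with Grip71, an opposite-strand gene at 52.5 and 53.0 FPKM.

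Summed by family, the 3 inward rectifier genes came to 170 FPKM in controls and 174 on knockdown, a ratio of 1.02. The 5 two-pore genes came to 121 and 107 FPKM, a ratio of 0.879. The inward rectifiers thus made up 58.4% of the summed FPKM of the 8 genes in controls and 62.0% on knockdown. All 8 together kept 96.3% of their summed control FPKM. These sums and shares are of FPKM only, and of the 3 inward rectifiers Irk3 alone lay above control. The median log2 ratio of the 3 was -0.05 by FPKM and -0.04 by mean normalized counts. No test of these shares is possible without values per library.

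The other genes of the two-pore family, known only by number, were set beside the 5 named ones. Of these 6 genes, 3 were at least 25% lower in both tables, 0 were higher, and all 6 lay below control in both, with a median log2 ratio of -0.43 by FPKM and -0.50 by mean normalized counts. Over all genes with a mean FPKM of at least 1, 14.5% were lower and 12.2% higher in both tables. CG10864 had the lowest ratio, at 2.95 FPKM in controls and 1.17 on knockdown, a log2 ratio of -1.33 by FPKM and -0.91 by mean normalized counts. CG43155 had the highest ratio, at 8.07 and 7.14 FPKM, a log2 ratio of -0.18, and CG1688 had the highest control level, 13.8 FPKM. Over all 11 two-pore genes sand had the highest log2 ratio by FPKM, Task7 and Task6 came next, and galene was 10th. By mean normalized counts sand again came 1st, CG43155 was 2nd, Task7 3rd and Task6 4th, and galene was 7th. Task6 and Task7 also held the 2 highest control levels of the family.

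The voltage-gated and calcium-activated channels shape the spike. Of 11 pore genes of that kind 8 were at least 25% lower in both tables and 0 higher, with a median log2 ratio of -0.53 by FPKM and -0.68 by mean normalized counts, beside 14.5% of all genes with a mean FPKM of at least 1 lower in both. These are long genes, with a median of 10039 bases of exon, and in the longest of 10 bins of exon length 47.0% of genes were at least 25% lower by FPKM. Once the median of genes of like exon length was taken off, the median log2 ratio by FPKM was -0.14 for this list and -0.08 for the 8 channel genes. By mean normalized counts with the same centring, Shab, the middle gene of the 11, was at -0.36. The list then ran from -0.95 for slo to 0.22 for sei, and the 8 channel genes from -0.42 for galene to 0.18 for Irk1. Without centring, the lowest FPKM ratio of the list was that of slo, the large-conductance calcium-activated channel. It was at 24.7 FPKM in controls and 11.4 on knockdown, a log2 ratio of -1.12. The highest ratio was that of sei, the fly ERG-type channel, at 35.9 and 39.7 FPKM, and the highest control level was that of Shal, an A-type channel, at 57.3 FPKM. Of 5 genes listed as auxiliary subunits of potassium channels, 3 were lower in both tables and 0 higher, with a median of -0.53 by FPKM. They ran from Hk, the beta subunit of Shaker, at -1.22 to Sur, the sulfonylurea receptor gene, at -0.05. The highest control level of the 5, 34.9 FPKM, was that of qvr. Of 8 genes for potassium pumps, cotransporters and their kinases, 1 was lower in both tables and 0 higher, with a median of -0.11. That gene was the kinase Wnk, at -0.62, and the highest ratio was that of nrv2, a beta subunit of the sodium and potassium pump, at 0.12. The potassium pump subunit Atpalpha had the highest level, 166 FPKM in controls.

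The 8 genes and the 2 lists of other pore genes make 25 potassium channel genes, which need not be all those of the fly. Among these 25 Irk3 and Irk2 had the 2 highest control levels, Task6 was 4th, Task7 6th and Irk1 9th. Lower down, sand was 18th, Ork1 20th and galene 24th. The 8 genes held 45.7% of the summed FPKM of the 25 in controls and 52.3% on knockdown. The share of the voltage-gated and calcium-activated genes was 45.0% and 39.3%, and that of the other two-pore genes 9.29% and 8.37%. By log2 ratio of FPKM, Irk3 ranked 1st of the 25, sand 3rd, Irk2 4th, Task7 5th, Task6 6th, Irk1 9th, Ork1 13th and galene 24th. By mean normalized counts galene ranked 13th. These ranks are a description of group means and carry no error.

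**Figure D3:**
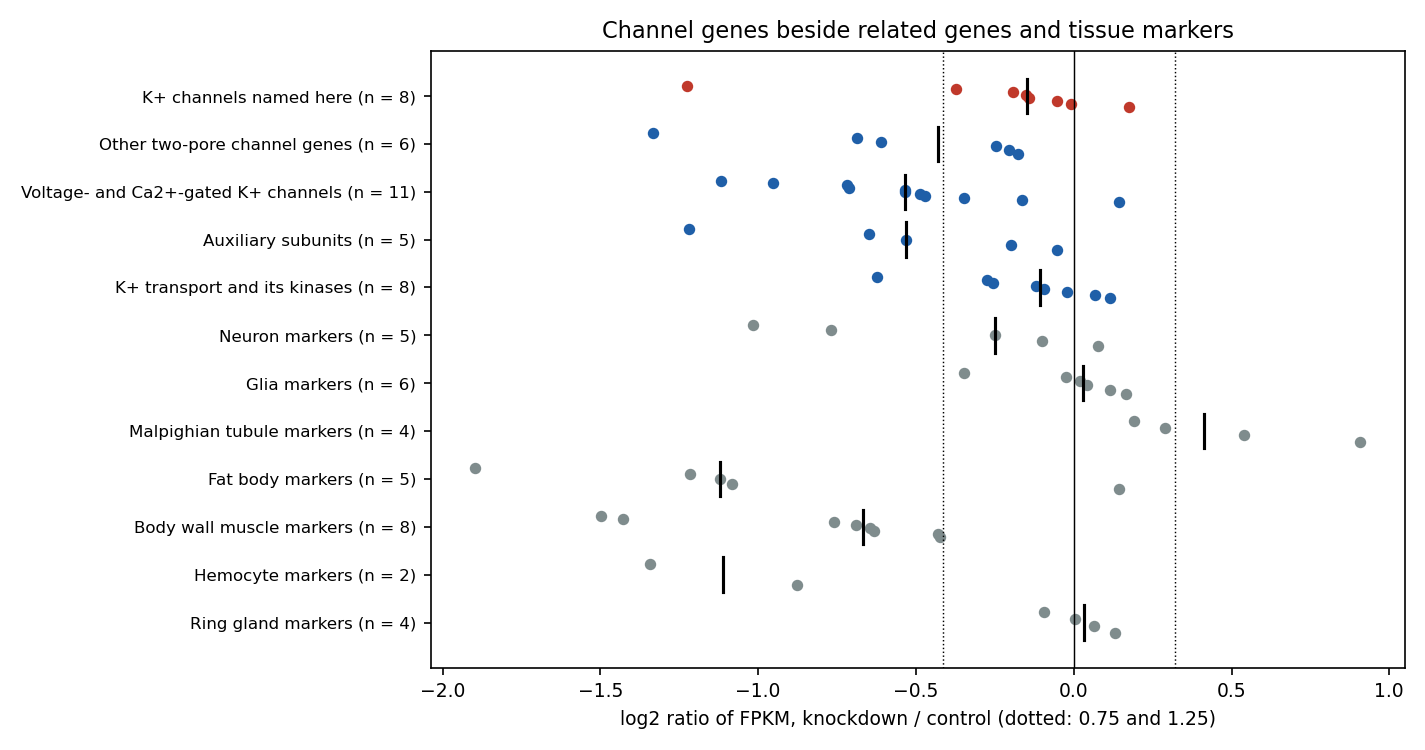
Log2 ratio of FPKM, knockdown to control, for the 8 channel genes (red), 4 lists of related potassium genes (blue) and tissue markers (grey), 1 point per gene, with a black bar at each list's median and dotted lines at a 25% decrease and a 25% increase. The median was -0.15 for the 8 genes and -0.53 for the voltage-gated and calcium-activated channels, and salivary gland markers were left out because their ratios run far off the axis.

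Exon length moved with these differences. Over all compared genes cut into 10 bins of exon length, the median log2 ratio of FPKM ran from 0.18 in the shortest bin to -0.39 in the longest. The 8 channel genes had a median exon length of 2736 bases, and the other two-pore genes 4268, beside 1883 for all genes with a mean FPKM of at least 1. After the median of its bin was taken from each gene, the auxiliary subunits had a median of -0.14, the other two-pore genes -0.35 and the list of pumps and cotransporters -0.02. In the same scale, by FPKM, galene was at -1.20, Task7 at -0.25, Ork1 at -0.23, Irk2 at -0.09, sand at -0.07, Task6 at -0.01, Irk3 at 0.11 and Irk1 at 0.20. By mean normalized counts with the same centring galene was at -0.42 and sand at 0.02. The part of exon length in the differences was not tested.

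**Figure D4:**
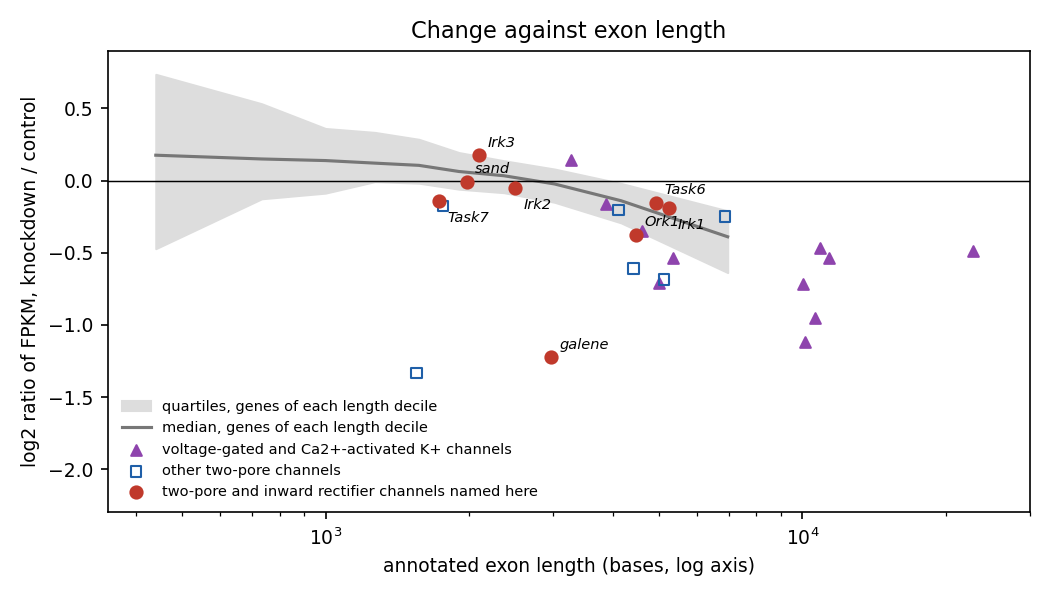
Log2 ratio of FPKM, knockdown to control, against annotated exon length in bases (log axis), for the 8 named channel genes, the 6 other two-pore genes and the 11 voltage-gated and calcium-activated genes, over the median (line) and quartiles (band) of all compared genes in 10 bins of exon length, drawn at each bin's median length. Irk1 lies above the line at -0.19 and galene far below it at -1.22, a value that was -0.44 by mean normalized counts.

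For each of the 8 genes, the potassium channel genes with the nearest pair of group means were taken from the 17 other channel genes, by Euclidean distance over the 2 values of log2 FPKM. With only 2 group means this says little more than that levels were alike. Task6 was nearest to Shal, at a distance of 0.15, sand to CG1688 at 0.18 and KCNQ at 0.20, and Ork1 to CG42594 at 0.22 and CG42340 at 0.28. Task7 was nearest to sei at 0.22 and Shab at 0.29, Irk1 to Shab at 0.41 and Shaw at 0.47, and Irk2 to Shal at 0.38 and, farther off, sei at 0.94. None of the 17 genes lay within 1 log2 unit of galene, whose nearest were CG34396 at 1.21 and CG10864 at 1.22. The same held for Irk3, whose nearest was Shal at 1.07. The 8 genes were not compared with one another in this way. For Task6 and Irk3 the next nearest was sei, at 0.59 and 1.61.

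Markers of neurons and glia were found in the samples, and markers of other tissues were found beside them. Control levels summed to 408 FPKM for the neuronal and 599 FPKM for the glial list. These are below the sums of the salivary gland and body wall muscle lists given below. The lists differ in size, so the sums do not rank the tissues. Of 5 neuronal markers 2 were at least 25% lower in both tables, elav at 69.0 and 40.5 FPKM and brp at 52.8 and 26.1. The log2 ratio of elav was -0.77 by FPKM and -0.48 by mean normalized counts. The driver ElavC155GAL4 bears the name of elav and is absent from the controls, and its part in the values of elav was not tested. The other 3 neuronal markers were nSyb at 157 and 146 FPKM, Syt1 at 67.8 and 56.9, and fne at 61.0 and 64.4. The neuronal list had a median log2 ratio of -0.25, and of 0.04 after the median of each gene's exon length bin was taken off. Of 6 glial markers 0 were lower, with a median of 0.03. Both kinds of marker stood between 51.4 and 181 FPKM in controls. Irk1 and Irk2 are known from the Malpighian tubule, but 3 of its 4 markers were under 1 FPKM in controls, and the 4 markers summed to 3.57 FPKM in controls and 4.53 on knockdown. Markers of some other tissues were lower on knockdown, beside 14.5% of all genes with a mean FPKM of at least 1 lower in both tables. Salivary gland markers summed to 777 FPKM in controls and 15.6 on knockdown (7 of 8 compared genes at least 25% lower in both tables, and 2 more of the 10 listed at 0 on knockdown). Fat body markers summed to 462 and 198 FPKM (4 of 5 lower), with Fbp1 at 0.191 and 0.211. Body wall muscle markers summed to 919 and 570 (8 of 8 lower), and hemocyte markers to 73.6 and 31.8 (2 of 2 lower). Ring gland markers summed to 353 and 351 FPKM (0 of 4 lower). The part of these tissues in the values of the 8 channel genes was not tested.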

How the data were processed

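RNA-seq of the larval CNS was compared between 3 control and 2 IP3R knockdown libraries, grouped by the labels. Reads were aligned by the authors to dm6 with TopHat, PCR duplicates were removed with Samtools, and 3 programs then compared the groups: CuffDiff, DESeq and edgeR, the latter pair on gene counts made with GenomicRanges. Per the submitters' notes the authors used TopHat2 2.0.11, Cuffdiff 2.2.0 and, with no version given, CASAVA, DESeq and edgeR. The first table deposited by the authors holds FPKM, 1 value per group. The second holds mean normalized counts per group, a signal made by the authors from read counts divided by size factors. The third, as deposited by the authors, holds an average log2 CPM over all libraries. Columns of fold changes, ratios and p-values in these tables hold the authors' own comparisons and were not used. In the normalized count table the overall mean equalled the mean of the group means weighted 3 to 2 in all 15580 rows above 0 (largest relative deviation 2.48e-09), which identified the group of 3 controls.

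Ratios of the group means were computed for the 13790 genes above 0 in both groups of both tables. As the tables have 0 columns of values per library, no model, spread, interval or permutation test was possible, and the tables do not give the depth of single libraries, for which the study's methods state a range over all samples. Exon lengths, strands and overlaps were taken from the gene annotation of Ensembl release 115 (dm6 coordinates), in which 99.1% of the compared genes had a length. The names sand and galene were matched through RefSeq locus tags. The named genes are the 8 channel genes, Itp-r83A, w and Dcr-2, overlapping genes, the highest and lowest ratio and highest control level of 4 lists, and the 2 channel genes nearest to each of the 8. Named outside this rule, after their values were seen, are the 5 neuronal markers and Fbp1. The 8 genes and the lists were chosen with earlier results of these data known. Alternatives were mean normalized counts, a pseudocount of 1, a minimum mean FPKM of 1, a ratio limit of 1.5, and centring on the median of all genes or of genes of like exon length. The code was tested on simulated data. Versions were Python 3.11.15, pandas 2.3.3, NumPy 2.4.6 and matplotlib 3.10.9.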

Additional observations from a re-analysis of the deposited data

How the results depend on the processing

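No paired analysis was possible because the tables hold group means only, and for the same reason no library could be left out in turn and no count model could be run. A log2 ratio or median was taken to have moved when it lay more than 0.32, the log2 value of a 25% change, from the FPKM value, and a count when it moved over 1.5 times, since no spread between libraries was to be had. By that limit 63 values stayed in place and 7 moved. The log2 ratio of galene was -0.44 by mean normalized counts, against -1.22 by FPKM. That of Irk1 was 0.20 after the median of its decile of exon length was taken off, against -0.19. This is a place above genes of like length, as Irk1 lay below control in both tables. With the same centring of FPKM the medians of the voltage-gated and calcium-activated list and of the auxiliary list were both -0.14, against -0.53. By mean normalized counts with that centring, Shab, the middle gene of the voltage-gated and calcium-activated list, was at -0.36. The number of genes at least 25% higher, 2792, was 1792 with a pseudocount of 1, 1781 with a ratio limit of 1.5 and 1609 with a minimum mean FPKM of 1. The direction of sand depended on the table, within that limit. The cause was not tested. Group means without a spread limit what any of these differences can show.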

Other observations

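For 4 of the 8 channel genes, sand, galene, Irk1 and Irk3, the locus listed by CuffDiff was longer than the annotated gene. The same held for 41.6% of the genes with a mean FPKM of at least 1 and an annotated position. In that set the median absolute difference between the log2 ratios of FPKM and normalized counts was 0.022 with such a locus and 0.016 without. Of the 4, sand differed by 0.10 between the tables, Irk1 and Irk3 by 0.02 and 0.01, and galene by 0.79. CG10864, the other two-pore gene with an FPKM ratio near that of galene, also had a higher ratio by mean normalized counts, -0.91 against -1.33, while CG42340 had a lower one, -0.44 against -0.25. These are values without a test.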
